A study of Mus musculus with 12 samples.

Results

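The genes described here are 10 genes of the eIF2α kinase, ATF4 and unfolded protein response pathways: Eif2ak1, Atf4, Ddit3, Trib3, Chac1, Asns, Ppp1r15a, Ppp1r15b, Hspa5 and Xbp1. They were taken by name from the 32699 genes of the deposited tables, and all 10 were found. The expression filter (over 10 CPM, counts scaled to library depth, in at least 2 libraries) kept 8273 genes, among them 9 of the 10. Each of these 9 was over 10 CPM in every library, so none passed only through a group in which it was high. Chac1 did not pass, with a highest library value of 6.45 CPM.

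RNA was sequenced from G1E-ER4, a mouse line of erythroid progenitors that lacks its own GATA-1 and carries GATA-1 joined to the estrogen receptor, so that estradiol sets off red cell maturation. There were 4 groups of 3 libraries: no treatment (Ctrl), Thiamet-G at 10 µM (TMG), β-estradiol at 1 µM (E2), and both agents at these doses (TMG_E2), each treatment for 30 h. Thiamet-G inhibits OGA, which strips the sugar O-GlcNAc off proteins, and the study asked whether disturbed O-GlcNAc cycling alters the erythroid gene programme. Cells of every group were of the same line and were grown with erythropoietin, stem cell factor and puromycin. No group held cells without the fusion given E2, so effects of E2 other than those through GATA-1 cannot be told apart from differentiation. The labels give no time for Ctrl, so a difference in culture time cannot be told apart from treatment in comparisons with Ctrl. All replicates come from a single line, and the labels do not name separate cultures. The p-values therefore reflect spread among the libraries, and part or all of that spread may be technical.

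HRI, the heme-regulated kinase encoded by Eif2ak1, phosphorylates the translation factor eIF2α when heme is short, and in erythroid precursors it balances globin synthesis against heme supply. Phosphorylated eIF2α slows most translation while the transcription factor ATF4 is made, and ATF4 then acts on genes of amino acid supply and stress, until the phosphatase subunits encoded by Ppp1r15a and Ppp1r15b restore eIF2α. The unfolded protein response shares the ATF4 arm through the kinase PERK and adds the IRE1 and XBP1 arm and the ATF6 arm, with the chaperone BiP (Hspa5) as a classic target. These libraries hold gene-level RNA counts, so neither eIF2α phosphorylation, ATF4 protein nor the spliced form of Xbp1 mRNA was measured.

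Promoter stretches are shown for 4 genes that carry a known response element of these pathways, as a reference for the values that follow. RefSeq (GRCm38.p6) gave a promoter for 9 of the 10 genes, and each stretch holds the 250 bases before the gene's start, 5′ to 3′ on the gene's strand. Capitals mark matches, on either strand, to the C/EBP-ATF element TGATGNAA, the ER stress element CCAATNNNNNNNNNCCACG, the cAMP response element TGACGTCA and the GATA motifs AGATAA and TGATAA. None of the marked matches overlap. The stretches are chr6:7693210-7693459 (minus strand) for Asns, chr2:119350992-119351241 (plus) for Chac1, chr7:45526269-45526518 (minus) for Ppp1r15a and chr2:34771840-34772089 (plus) for Hspa5.
Asns: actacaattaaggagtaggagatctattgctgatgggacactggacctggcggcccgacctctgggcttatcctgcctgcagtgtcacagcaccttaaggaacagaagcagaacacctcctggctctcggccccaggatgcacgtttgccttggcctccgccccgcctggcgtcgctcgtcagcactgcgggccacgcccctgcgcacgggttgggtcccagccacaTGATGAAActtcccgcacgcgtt
Chac1: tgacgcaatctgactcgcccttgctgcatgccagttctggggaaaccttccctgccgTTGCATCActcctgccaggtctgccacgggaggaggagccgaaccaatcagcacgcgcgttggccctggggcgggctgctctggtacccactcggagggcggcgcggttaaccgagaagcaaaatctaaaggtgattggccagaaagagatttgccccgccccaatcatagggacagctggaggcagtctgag
Ppp1r15a: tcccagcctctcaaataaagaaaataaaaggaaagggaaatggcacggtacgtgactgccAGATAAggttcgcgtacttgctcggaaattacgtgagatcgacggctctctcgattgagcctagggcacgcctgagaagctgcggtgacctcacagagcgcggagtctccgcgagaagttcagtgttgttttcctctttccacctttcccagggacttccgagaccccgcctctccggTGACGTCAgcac
Hspa5: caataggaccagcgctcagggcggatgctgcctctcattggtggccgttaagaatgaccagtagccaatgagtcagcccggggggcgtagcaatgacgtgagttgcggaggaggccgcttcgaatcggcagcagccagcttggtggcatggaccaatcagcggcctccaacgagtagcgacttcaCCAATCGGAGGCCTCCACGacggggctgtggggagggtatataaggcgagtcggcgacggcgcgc
The C/EBP-ATF element lay 23 to 16 bases upstream of the start of Asns and 193 to 186 bases upstream of that of Chac1, where it reads TTGCATCA on the printed strand. It was found in 3.4% of 32536 promoters of the same length. The ER stress element of Hspa5 lay 65 to 47 bases upstream, and 0.114% of promoters held it. The cAMP response element of Ppp1r15a lay 12 to 5 bases upstream (1.56% of promoters). A GATA motif lay 190 to 185 bases upstream of Ppp1r15a and 39 to 34 bases upstream of Atf4, and 16.5% of promoters held one. The windows of Eif2ak1, Ddit3, Trib3 and Xbp1 held none of these letters. Bases outside the windows and variant letters were not searched, so this cannot show that a gene lacks such an element.

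Library totals ran from 17589380 to 23178721 expected counts, and the first principal component (94.8% of the variance) separated the 6 libraries with E2 from the 6 without. The labels call the cells embryonic stem cells, but Pou5f1, Sox2 and Zfp42 were at 0 in every library and the summed level of 4 such markers was at most 0.281 CPM. Summed levels of 5 erythroid markers ranged from 1181 to 1272 CPM without E2 and from 5606 to 6184 CPM with it. Most of the sum without E2 was Tfrc alone, with means of 973 CPM in Ctrl and 987 CPM in TMG. Its means were 2664 CPM in E2 and 2750 CPM in TMG_E2. Summed levels of 4 mast cell markers were 12.7 to 41.0 CPM without E2 and 0.0448 to 0.180 CPM with it, so they moved with E2 too, and their part in the results was not tested. Lymphoid markers summed to at most 1.22 CPM, granulocyte and macrophage markers to at most 3.42 CPM and megakaryocyte markers to at most 18.3 CPM. In bulk RNA, more cells of a kind and more RNA per cell cannot be told apart.

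Within untreated cells the 10 genes spanned a wide range of levels, compared here by the deposited TPM, which scale for gene length as well as depth. Asns, the enzyme that makes asparagine, was highest at 823 ± 11.997 TPM (SD, n = 3), followed by Atf4 at 368 ± 39.0 and Hspa5 at 183 ± 6.88. Ppp1r15b (75.0), Ddit3 (70.1) and Eif2ak1 (66.4) came next, and neighbours in that order overlapped between libraries. Trib3 (58.0), Xbp1 (37.3), Ppp1r15a (20.7) and Chac1 (5.85) followed without overlap between neighbours. With E2 alone Asns (711 TPM) and Atf4 (343) stayed at the head, while the order below them was Ddit3 (272), Eif2ak1 (224), Ppp1r15b (162), Ppp1r15a (129) and Hspa5 (127), of which only the last pair overlapped. Trib3 (85.2), Xbp1 (50.7) and Chac1 (2.11) closed the E2 order, and the order of the means was the same in TMG_E2.

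With E2, the HRI kinase gene Eif2ak1 and the eIF2α phosphatase subunit genes Ppp1r15a and Ppp1r15b rose, Atf4 mRNA did not pass the test against untreated cells, and the products known to follow ATF4 or ER stress went different ways. Of the 9 genes tested in E2 vs Ctrl, 6 rose (Eif2ak1, Ddit3, Trib3, Ppp1r15a, Ppp1r15b and Xbp1), Hspa5 fell, and Atf4 and Asns did not pass an edgeR adjusted p of 0.05. E2 changed 82.7% of all genes tested (41.5% higher and 41.2% lower), so a call as such says little about these genes. With library size alone, 2871 genes were higher and 3952 lower, and with TPM 2321 and 4411, beside 3432 and 3406 in the TMM-scaled fit. The median log2 fold change of the 9 genes was 0.75, beside -0.00076 over all genes tested and a median size of change of 0.41. The genes were chosen with earlier results of these data known, so this contrast is a description and not a test.

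**Figure D1:**
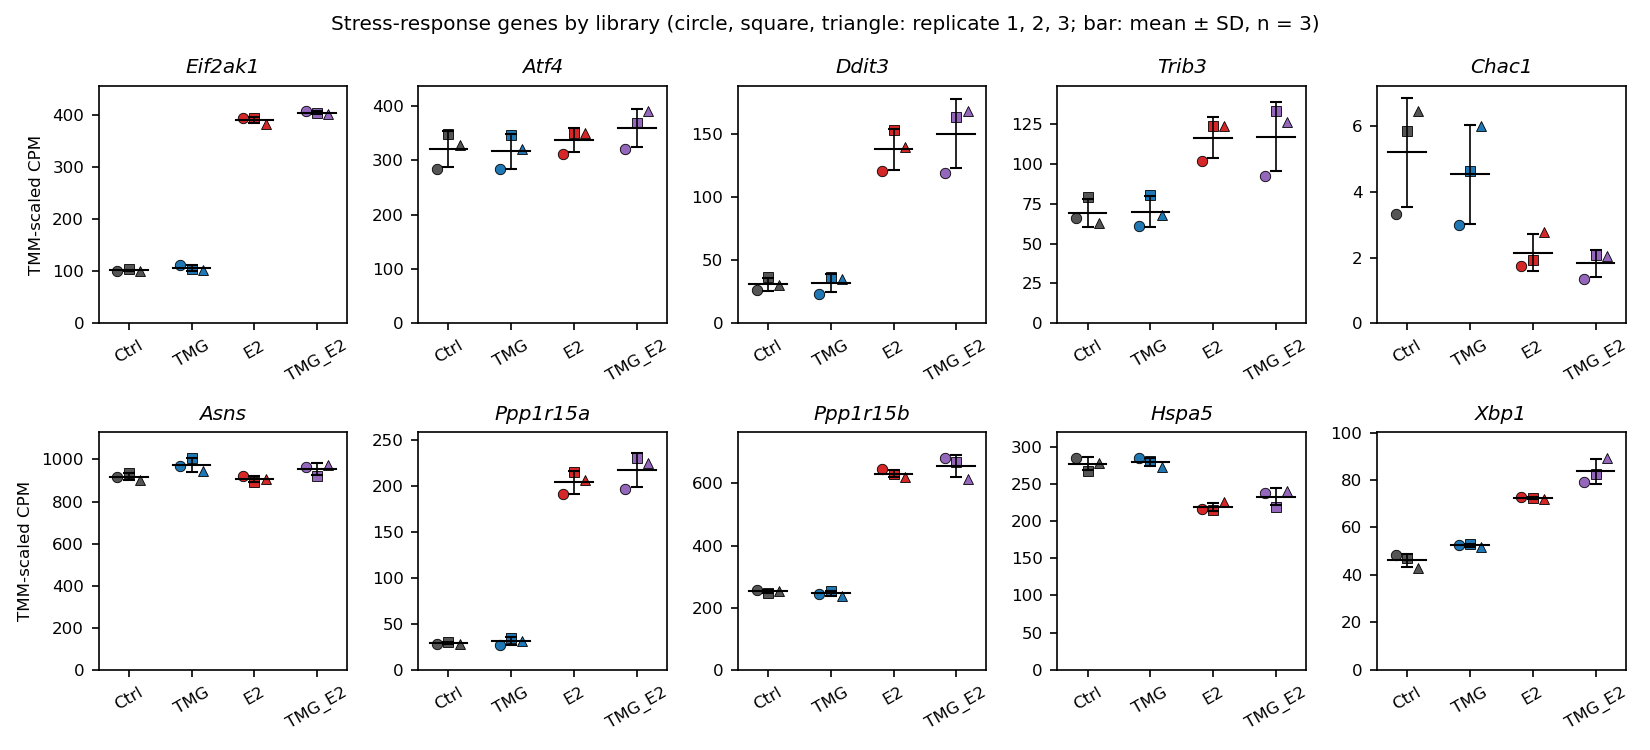
TMM-scaled CPM (y axis, from 0) of the 10 genes in the 4 groups (x axis), with 1 point per library (circle, square and triangle for replicates 1, 2 and 3) and bars for the mean ± SD (n = 3). Eif2ak1, Ddit3, Trib3, Ppp1r15a, Ppp1r15b and Xbp1 stand higher in both groups with E2, Hspa5 and Chac1 lower, and Atf4 and Asns overlap between E2 and Ctrl.

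Eif2ak1 (chromosome 5, 143817792 to 143902717) measured 100.3, 103 and 101 CPM in the Ctrl libraries and 393, 395 and 383 CPM in the E2 libraries. That is a rise from 101 ± 1.67 to 390.4 ± 6.34 CPM (SD, n = 3), 3.85-fold, with log2 1.94 ± 0.04 (SE) and adjusted p = 1.11e-17. The groups are far apart, and the libraries within each group lie within a few percent of each other. Beside TMG the rise had nearly the same size: 113, 105 and 102 CPM in TMG and 407, 404 and 402 CPM in TMG_E2 (log2 1.92 ± 0.04, adjusted p = 1.48e-17). In the GENCODE M21 annotation, the largest overlap of an Eif2ak1 exon with an exon of the opposite-strand gene Aimp2 is 487 bases. With Ankrd61 it is 89 bases. Aimp2 also rose with E2 (78.7 to 116 CPM, log2 0.57 ± 0.05), and Ankrd61, which did not pass the filter, had means of 1.07 and 8.08 CPM. The sources used here do not state whether strand was used in counting, so reads in these overlaps cannot be assigned with certainty.

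The eIF2α phosphatase subunits rose as well. Ppp1r15a (GADD34, the inducible subunit; chromosome 7, 45522917 to 45526268) had the highest fold change of the 9 genes. Its libraries stood at 28.5, 29.9 and 27.6 CPM in Ctrl and at 191, 215 and 206 CPM in E2, a 7.11-fold rise (log2 2.83 ± 0.08, adjusted p = 1.16e-15). TMG_E2 libraries stood at 196, 230.3 and 225 CPM against 27.3, 35.1 and 31.8 CPM in TMG (log2 2.79 ± 0.08, adjusted p = 1.40e-15). Every library with E2 was thus above every library without it. Its largest exon overlap with Tulp2, on the other strand, is 11 bases. Tulp2 had means of 0.247 CPM in Ctrl and 5.82 CPM in E2 and did not pass the filter.

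Ppp1r15b (CReP, the constitutive subunit; chromosome 1, 133131166 to 133139800) stood above Ppp1r15a in each group by TPM (75.0 against 20.7 in Ctrl, 162 against 129 in E2). Its Ctrl libraries measured 256, 247 and 254 CPM and its E2 libraries 645, 630.3 and 620.1 CPM. The rise was 2.50-fold (log2 1.32 ± 0.04, adjusted p = 6.50e-15), and log2 1.41 ± 0.04 beside TMG (245, 255 and 238 to 682, 668 and 615 CPM). The groups with and without E2 did not overlap. Its largest exon overlap with the opposite-strand gene model Gm26616 is 640 bases. Gm26616 is not among the deposited genes under that name, so its level is not known here.

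Atf4 (chromosome 15, 80255184 to 80257545), the transcription factor of the pathway, measured 284, 348 and 328 CPM in Ctrl and 312, 349.8 and 349 CPM in E2. The difference was log2 0.07 ± 0.08 (adjusted p = 0.408), with an interval of 2 SE either side from -0.09 to 0.24. Beside TMG, Atf4 went from 283, 346 and 319.7 CPM to 320.2, 368 and 390 CPM, which passed the threshold narrowly (log2 0.18 ± 0.08, adjusted p = 0.0487) although the groups overlap. That call was kept in 13 of 21 other ways of analysing the data, with adjusted p from 0.000199 to 0.930 and log2 values from 0.0073 to 0.27. It was lost with library size alone, DESeq2 and TPM, and without TMG replicate 1 or 3, E2 replicate 3, or TMG_E2 replicate 2 or 3. The change beside TMG was not shown to differ from that without it (interaction log2 0.11 ± 0.12, adjusted p = 0.822).

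Ddit3 and Trib3, which ATF4 is known to drive, rose with E2. Ddit3 (CHOP, a transcription factor of the terminal stress response; chromosome 10, 127290793 to 127296291) measured 26.3, 36.3 and 30.1 CPM in Ctrl and 121, 153 and 139 CPM in E2, a 4.45-fold rise (log2 2.16 ± 0.15, adjusted p = 4.01e-10). Beside TMG it went from 23.5, 36.3 and 34.9 to 119, 163 and 168 CPM (log2 2.25 ± 0.15, adjusted p = 2.48e-10). Both comparisons are free of overlap, but the libraries of a group differ more than for the other genes tested. The largest overlap of a Ddit3 exon with Mars, the methionyl-tRNA synthetase gene on the other strand, is 68 bases. Mars fell from 229 to 200.1 CPM. Expected counts of Ddit3 were not whole (tolerance 0.005) in 11 of 12 libraries, while those of the other 9 genes were whole in each.

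Trib3 (a pseudokinase that restrains ATF4 and AKT; chromosome 2, 152337425 to 152344060) measured 66.1, 79.1 and 62.8 CPM in Ctrl and 102, 124 and 124 CPM in E2. The rise was 1.68-fold (log2 0.75 ± 0.12, adjusted p = 2.42e-05). Beside TMG it went from 61.1, 80.5 and 68.2 to 92.4, 133 and 126 CPM (log2 0.74 ± 0.12, adjusted p = 3.18e-05). Libraries with E2 were again all above those without.

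Asns and Chac1, whose promoters carry the C/EBP-ATF element printed above, did not rise with E2. Whether the element bears on the response was not tested. Asns (chromosome 6, 7675165 to 7693209) measured 915, 938 and 903 CPM in Ctrl and 921, 895 and 909 CPM in E2 (log2 -0.02 ± 0.04, adjusted p = 0.671). The groups overlap, and the interval of 2 SE runs from -0.09 to 0.06. With library size alone as the scaling, which puts the median of all genes at -0.10, Asns was called lower (log2 -0.11, adjusted p = 0.00567). With log2(TPM + 1), which puts that median at -0.19, it was also called lower (log2 -0.21, adjusted p = 3.84e-05). Beside TMG, Asns differed by log2 -0.03 ± 0.04 (adjusted p = 0.454), and by -0.13 and -0.21 under these scalings, both called.

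Chac1 (a glutathione-degrading enzyme; chromosome 2, 119351242 to 119354326) was rare, with 339 counts over the 3 Ctrl libraries and 127 over the 3 E2 libraries. Its levels were 3.31, 5.85 and 6.45 CPM in Ctrl, 2.99, 4.64 and 5.99 in TMG, 1.74, 1.92 and 2.78 in E2, and 1.34, 2.09 and 2.04 in TMG_E2. All 6 libraries with E2 were below all 6 without it. In a fit with no filter, over 16108 genes, the difference was log2 -1.28 ± 0.19 in E2 vs Ctrl (adjusted p = 1.31e-08) and log2 -1.32 ± 0.21 in TMG_E2 vs TMG (adjusted p = 4.15e-08).

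The chaperone and the transcription factor of the unfolded protein response went in opposite directions. Hspa5 (BiP; chromosome 2, 34772090 to 34776529) fell from 285, 267 and 278 CPM in Ctrl to 216, 215 and 225 CPM in E2 (log2 -0.34 ± 0.04, adjusted p = 4.74e-07). Beside TMG it fell from 284, 281 and 273 to 238, 219 and 241 CPM (log2 -0.26 ± 0.04, adjusted p = 9.78e-06). No library with E2 reached the lowest library without it. Xbp1 (chromosome 11, 5520641 to 5525993) rose from 48.4, 47.1 and 43.1 CPM in Ctrl to 73.0, 72.3 and 72.0 CPM in E2 (log2 0.65 ± 0.05, adjusted p = 1.81e-09). Beside TMG the rise in Xbp1 was log2 0.67 ± 0.05 (adjusted p = 1.02e-09).

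In TMG_E2 vs TMG, 7 of the 9 genes rose and 1 fell, where 82.7% of all genes were called (40.9% higher and 41.8% lower). The extra gene was Atf4. Groups with and without E2 were free of overlap for 7 of the 9 genes in both comparisons, beside 85.9% of all genes in E2 vs Ctrl and 81.8% in TMG_E2 vs TMG. The comparisons E2 vs Ctrl and TMG_E2 vs TMG share no library, but both come from the same fit over all 12 libraries. They share its estimate of spread and so are not independent. With library size alone, 6 of the 9 genes rose and 2 fell in either comparison, and the median of all genes in TMG_E2 vs TMG was then at -0.11.

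Thiamet-G moved a single gene of the 9, Xbp1. Its libraries measured 52.5, 53.2 and 52.0 CPM in TMG, all above the 43.1 to 48.4 CPM of Ctrl (46.2 ± 2.74 to 52.6 ± 0.627 CPM). The change was log2 0.19 ± 0.05 with adjusted p = 0.0461, 1 of 9 genes where 5.15% of all genes were called in TMG vs Ctrl (3.01% higher). Beside E2, Xbp1 stood at 79.1, 82.7 and 89.3 CPM in TMG_E2 against 72.0 to 73.0 CPM in E2 (log2 0.21 ± 0.05, adjusted p = 0.0105), 1 of 9 genes where 12.8% of all were called (5.61% higher). Xbp1 thus stood in the order TMG_E2, E2, TMG, Ctrl with no overlap between neighbours. The TMG vs Ctrl call was thin: it was lost with library size alone (adjusted p = 0.0621), with another expression filter, filterByExpr (0.0555), and on leaving out any library but TMG_E2 replicate 1 or 3. Over 21 alternatives the log2 change ranged from 0.14 to 0.23 and the adjusted p from 0.0168 to 0.257, with 9 calls. The call beside E2 was kept in 20 of 21 alternatives, with adjusted p from 0.00322 to 0.121, and was lost with TPM.

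**Figure D2:**
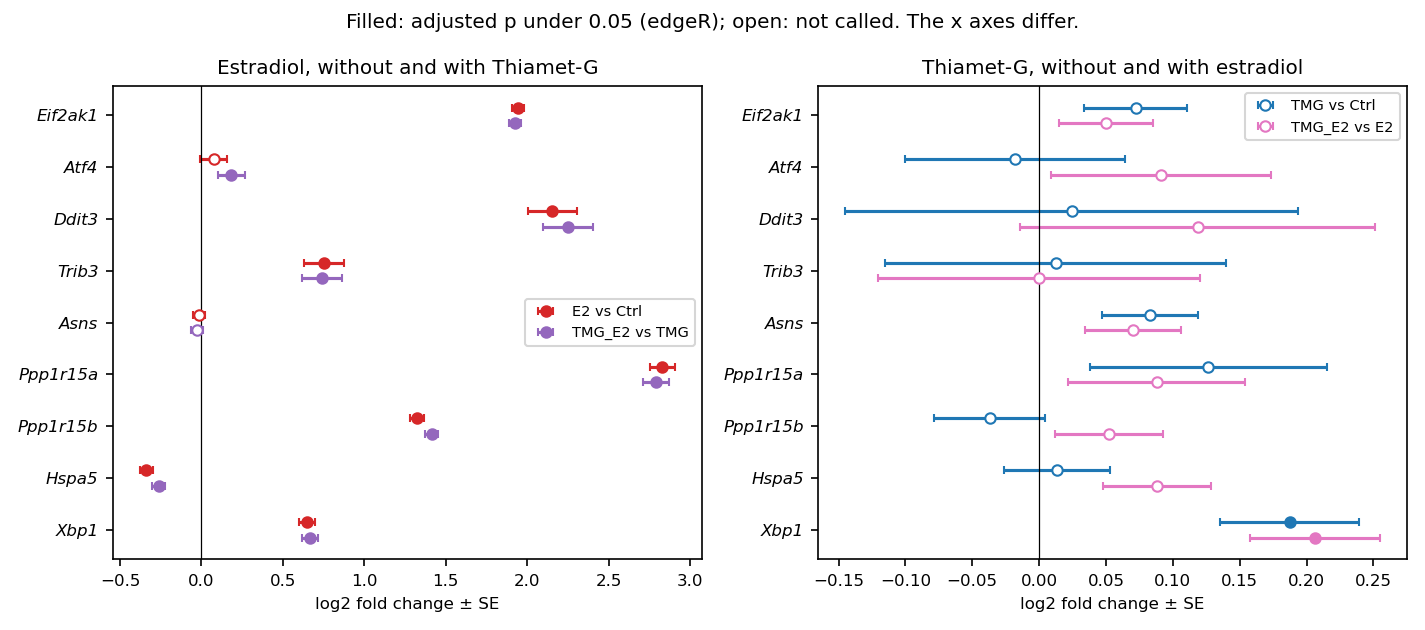
Log2 fold changes ± SE (x axis, with different ranges in the panels) of the 9 genes tested (y axis); the left panel gives E2 without and with TMG, the right panel TMG without and with E2. Filled points passed an edgeR adjusted p of 0.05: in the right panel these are the Xbp1 points alone, at 0.19 and 0.21.

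The other 8 genes did not pass the test for TMG in either setting, and the intervals (2 SE either side) give the room that remains. For Eif2ak1 the interval was -0.01 to 0.15 in TMG vs Ctrl and -0.02 to 0.12 in TMG_E2 vs E2, although the TMG_E2 libraries (402 to 407 CPM) lay above the E2 libraries (383 to 395 CPM). Asns was above its control group in both settings without overlap, at 967, 1007 and 945 CPM in TMG against 903 to 938 in Ctrl, and 962, 922 and 976 CPM in TMG_E2 against 895 to 921 in E2. Neither difference in Asns passed the threshold (log2 0.08 ± 0.04, adjusted p = 0.214, and 0.07 ± 0.04, adjusted p = 0.218). Groups were free of overlap for 2 of 9 genes in TMG vs Ctrl and 3 of 9 in TMG_E2 vs E2, beside 28.7% and 28.5% of all genes.

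Ddit3 had the widest intervals, -0.31 to 0.36 in TMG vs Ctrl and -0.15 to 0.38 in TMG_E2 vs E2. Hspa5 differed by log2 0.01 ± 0.04 (adjusted p = 0.898) and 0.09 ± 0.04 (adjusted p = 0.163). Without TMG_E2 replicate 2 the second value of Hspa5 was 0.14 and was called (adjusted p = 0.0329). That library, at 219 CPM, was the lowest of its group. Ppp1r15a differed by 0.13 ± 0.09 and 0.09 ± 0.07, and Ppp1r15b by -0.04 ± 0.04 and 0.05 ± 0.04. Chac1 differed by -0.22 ± 0.17 and -0.26 ± 0.24 in the fit with no filter.

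Whether E2 changes the response to TMG was tested as an interaction, where 0.931% of all genes were called (0.266% higher and 0.665% lower). By edgeR, 0 of the 9 genes were called and 0 had an unadjusted p under 0.05. DESeq2 and limma-voom also called 0. The estimates ran from -0.04 to 0.11 on the log2 scale. Intervals of 2 SE either side were widest for Ddit3 (-0.34 to 0.52) and Trib3 (-0.36 to 0.34). For Atf4 the interval ran from -0.12 to 0.34. Dependence on E2 within these intervals was therefore not excluded.

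Genes around the 9 were described by 4 lists of known pathway genes. Of 13 genes for eIF2 kinases, eIF2, its exchange factor eIF2B and the mitochondrial relay to HRI, all tested, 4 rose and 7 fell with E2 (median log2 -0.21), beside 41.5% and 41.2% of all genes. Dele1, which carries mitochondrial stress to HRI, rose (log2 0.43 ± 0.04), as did Eif2ak3, encoding PERK (0.31 ± 0.08), and Eif2s1, encoding eIF2α itself (0.20 ± 0.04). With TPM, Eif2ak3 (0.12, adjusted p = 0.180) and Eif2s1 (0.0085, adjusted p = 0.850) were not called. Eif2ak4, encoding the amino acid sensor GCN2, fell (-0.50 ± 0.05), as did Oma1, the protease that cleaves DELE1 (-0.51 ± 0.09), and the eIF2γ gene Eif2s3x (-0.51 ± 0.04). Of the other 3 eIF2α kinase genes, therefore, 1 rose, 1 fell and Eif2ak2, encoding PKR, did not pass (-0.11, adjusted p = 0.0832), while Eif2ak1 rose by 1.94. With the replicate number as a block Eif2ak2 was called lower (-0.11, adjusted p = 0.0473).

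Of 38 other genes known as ATF4 targets 31 were tested, and 12 rose and 16 fell with E2 (median log2 -0.13), again beside 41.5% and 41.2% of all genes. Slc6a9, the glycine transporter GlyT1, went from 24.9 ± 1.13 to 162 ± 5.28 CPM (log2 2.70 ± 0.06), the highest change of the list. The stress protein gene Nupr1 rose from 11.7 ± 1.79 to 29.4 ± 2.51 CPM (1.33 ± 0.12), and Aars, the alanyl-tRNA synthetase, by log2 1.00 ± 0.03. Gpt2, an alanine aminotransferase, fell (-1.63 ± 0.08), as did Psph, the last enzyme of serine synthesis (-1.55 ± 0.05), and the cystine transporter Slc7a11 (-0.74 ± 0.08). The 7 listed genes not tested were Atf3, Vldlr, Stc2, Gdf15, Fgf21, Phgdh and Cth, with at most 0.944 CPM in a library.

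Of 19 IRE1 and XBP1 target genes 18 were tested, and 10 rose and 6 fell with E2 (median log2 0.20), with the same 41.5% and 41.2% over all genes. With library size alone the split was 7 and 7, where over all genes it was 2871 higher and 3952 lower. Derl1, of ER-associated degradation, rose (log2 0.95 ± 0.04), as did Ern1, which encodes IRE1α (44.6 ± 1.98 to 84.3 ± 2.85 CPM, 0.92 ± 0.06), and the signal recognition particle receptor gene Srpr (0.48 ± 0.04). The translocon gene Sec61a1 fell (-0.74 ± 0.04), as did Ssr1 of the translocon (-0.49 ± 0.03) and the disulfide isomerase Pdia6 (-0.49 ± 0.05).

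Of 17 genes of the ATF6 arm and ER folding 16 were tested, and 3 rose and 12 fell with E2 (median log2 -0.55), where 41.5% of all genes rose and 41.2% fell. The lectin chaperone gene Calr fell from 531 ± 28.7 to 212 ± 6.28 CPM (log2 -1.32 ± 0.05) and the disulfide isomerase Pdia4 from 58.9 ± 0.560 to 24.3 ± 0.730 CPM (-1.28 ± 0.05). Mbtps2, the second protease that releases ATF6, fell as well (-1.19 ± 0.08). Atf6 itself rose (48.1 ± 1.95 to 72.2 ± 2.95 CPM, 0.59 ± 0.05), as did the first protease Mbtps1 (0.25 ± 0.05), which was not called with TPM (0.041, adjusted p = 0.585). With the replicate block Atf6b, the paralog of Atf6, was called higher too (0.13, adjusted p = 0.0372, beside 0.0532 without the block). The oxidase gene Ero1l was also called (0.25 ± 0.10, adjusted p = 0.0270), but in 14 of 21 alternatives only, with log2 values of 0.06 to 0.34. It was not called without Ctrl replicate 1 or 3 or E2 replicate 2 or 3.

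**Figure D3:**
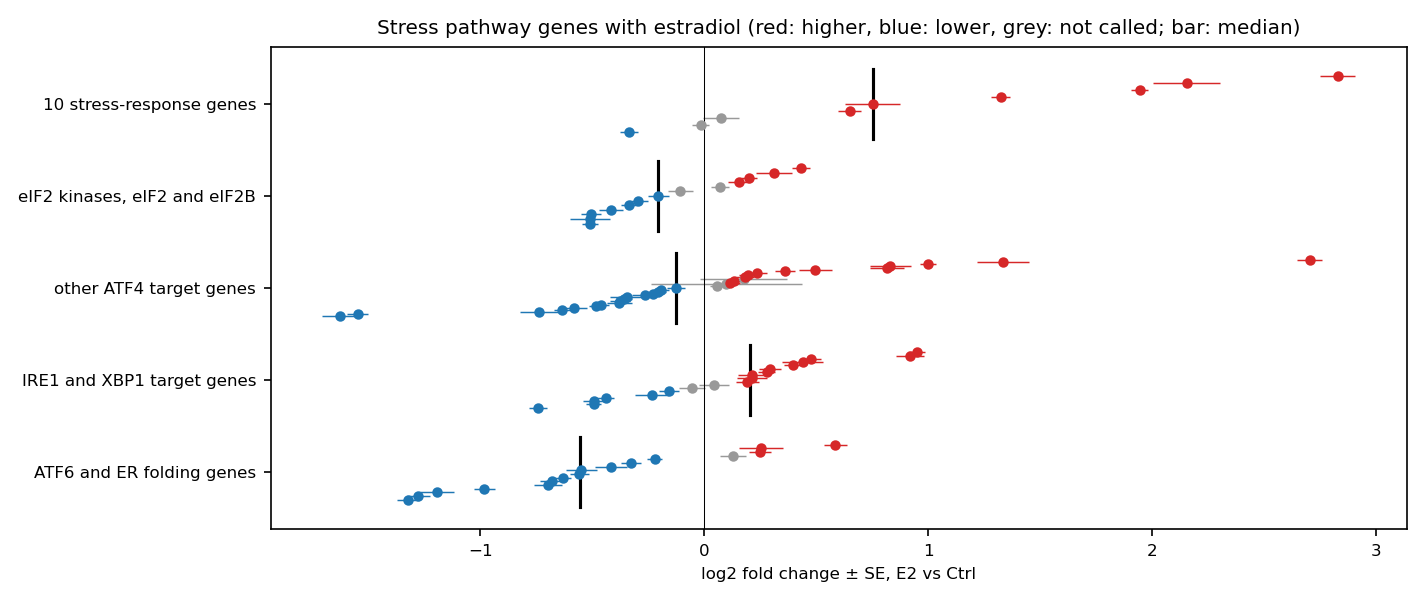
Log2 fold changes ± SE in E2 vs Ctrl (x axis) of each tested gene of the 10 stress-response genes and of the 4 pathway lists (y axis), red where higher, blue where lower and grey where not called, with a bar at each list's median. The ATF6 and ER folding list lies mostly below 0 (12 of 16 lower), and the 10 genes lie mostly above it (6 of 9 higher). All were chosen with earlier results of these data known.

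The counts of genes that rose depend on the scaling. With log2(TPM + 1), 1 of the eIF2 list, 7 of the ATF4 list, 5 of the IRE1 list and 1 of the ATF6 list rose, while 9, 17, 7 and 12 fell, where over all genes 2321 rose and 4411 fell. Beside TMG, E2 gave 4 higher and 8 lower in the eIF2 list, 12 and 15 in the ATF4 list, 9 and 5 in the IRE1 list, and 3 and 12 in the ATF6 list, where 40.9% of all genes rose and 41.8% fell. The medians there were -0.26, -0.02, 0.10 and -0.54, beside -0.01 over all genes.

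Thiamet-G moved few genes of these lists. In TMG vs Ctrl, 3 of 31 ATF4 target genes fell (2.14% of all genes did), all of them amino acid transporters of the plasma membrane. Slc7a5 and Slc3a2, the chains of the large neutral amino acid transporter, fell by 0.25 ± 0.05 (adjusted p = 0.0123) and 0.24 ± 0.05 (adjusted p = 0.0167) on the log2 scale, and the cationic transporter Slc7a1 fell by 0.17 ± 0.04 (adjusted p = 0.0149). Slc7a5 libraries measured 441, 423 and 443 CPM in Ctrl and 378, 349.99 and 370.4 CPM in TMG, so the groups do not overlap, and neither do those of the other 2 genes. Leaving out 1 library changed this count to between 0 (without Ctrl replicate 3 or TMG replicate 2) and 6 (without TMG_E2 replicate 3), with 1 without Ctrl replicate 1. DESeq2 called 5 lower and 1 higher, and library size alone and TPM gave 5 lower each. Slc7a5 lost its call without Ctrl replicate 1 or 3 or TMG replicate 2 (adjusted p at most 0.0679), Slc3a2 without Ctrl replicate 2 or 3 or TMG replicate 1 or 2 (at most 0.0846), and Slc7a1 without Ctrl replicate 1 or 3 or TMG replicate 2 or 3 (at most 0.0693). In the eIF2, IRE1 and ATF6 lists 0 genes were called by edgeR without a block, DESeq2 or limma-voom, and 1, 3 and 1 of their genes had an unadjusted edgeR p under 0.05. Over all 21 alternatives at most 1, 1 and 2 genes of these lists were called, all lower, among them Edem3 (-0.19, adjusted p = 0.0462) and Hyou1 (-0.14, adjusted p = 0.0271) with the replicate block. The block also called the ATF4 target genes Nupr1 higher (0.41, adjusted p = 0.0118) and Eprs lower (-0.13, adjusted p = 0.0193). Over all genes, 675 were called with the block, beside 426 without it.

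In TMG_E2 vs E2, 3 ATF4 target genes fell: Gpt2 (log2 -0.47 ± 0.10, adjusted p = 0.00496), Slc7a1 (-0.18 ± 0.04, adjusted p = 0.00591) and Mars (-0.13 ± 0.04, adjusted p = 0.0294), where 7.14% of all genes fell. Slc7a1 thus fell in both settings, with 402, 403 and 433 CPM in E2 and 362, 375 and 355 CPM in TMG_E2. In the ATF6 and ER folding list the chaperone Hyou1 fell from 94.1 ± 1.88 to 77.3 ± 3.58 CPM (-0.28 ± 0.05, adjusted p = 0.00144) and Sdf2l1 by 0.29 ± 0.08 on the log2 scale (adjusted p = 0.0234). In the IRE1 list Sec61a1 fell (-0.13 ± 0.04, adjusted p = 0.0474), but in only 7 of 21 alternatives, with adjusted p from 0.0206 to 0.184. That call was lost without any library of Ctrl or TMG, E2 replicate 2 or 3, or TMG_E2 replicate 1. Gpt2, Slc7a1 and Hyou1 were called in each alternative that tested them. Mars was called in 14 of 21 (adjusted p 0.0126 to 0.121), and not without Ctrl replicate 3, E2 replicate 1 or 3, or TMG_E2 replicate 1 or 2. Sdf2l1 was called in 16 of 21 (adjusted p 0.00341 to 0.0914). The ATF6 list had 1 gene lower, Hyou1 and not Sdf2l1, without E2 replicate 2 or 3 or TMG_E2 replicate 1 or 2. In the eIF2 list 0 genes were called by edgeR, DESeq2 or limma-voom, and 3 had an unadjusted edgeR p under 0.05. With the replicate number as a block, 1 gene of the eIF2 list, 4 of the ATF4 list, 2 of the IRE1 list and 3 of the ATF6 list were lower, and 1 of the IRE1 list (Derl1) and 1 of the ATF4 list (Slc3a2) higher. The share of all genes called with the block is not given for TMG_E2 vs E2, so these counts say little about the lists. In TMG vs Ctrl the block raised the calls over all genes from 426 to 675.

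The spread between libraries of a group differed among the 10 genes, and for some of them replicate 1 was low in each group, a pattern chosen after the values were seen. The within-group SD of log2 CPM was 0.26 for Ddit3, above 99.1% of the genes kept, 0.21 for Trib3 (98.3%), 0.14 for Atf4 (92.1%) and 0.12 for Ppp1r15a (88.4%). It was 0.06 for Xbp1 (42.2%), 0.05 for Ppp1r15b (25.9%) and Hspa5 (23.3%), and 0.04 for Eif2ak1 (11.7%) and Asns (7.89%). Chac1, which was not kept, deviated from its group means by -0.58 to 0.45. Replicate 1 was the lowest of its group in 4 of 4 groups for Atf4, Ddit3 and Chac1 and in 3 of 4 for Trib3 and Ppp1r15a. It was lowest in 1 of 4 for Eif2ak1 and Xbp1 and in 0 of 4 for Asns, Ppp1r15b and Hspa5. Of all genes kept, 250 (3.02%) had replicate 1 lowest in all 4 groups.

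**Figure D4:**
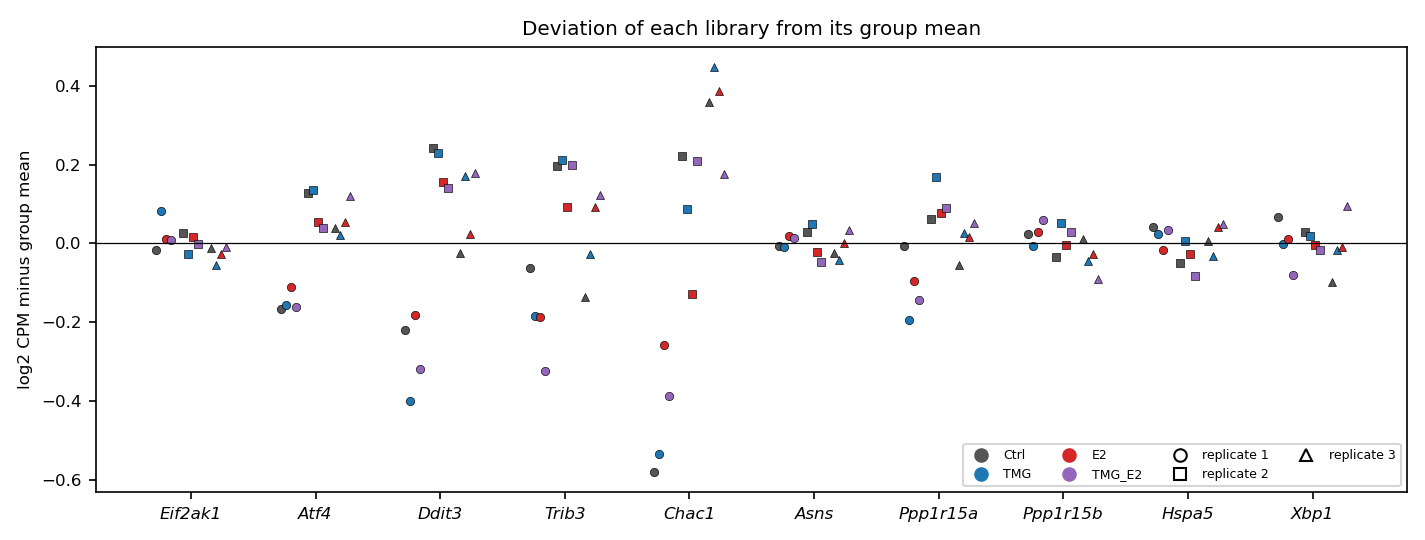
Deviation of each library's log2 CPM from its group mean (y axis) for the 10 genes (x axis), coloured by group, with circles, squares and triangles for replicates 1, 2 and 3. The circles lie below 0 in all 4 groups for Atf4, Ddit3, Trib3, Chac1 and Ppp1r15a, and near 0 for Eif2ak1 and Asns.

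In Ddit3, replicate 1 lay below its group mean by -0.22 (Ctrl), -0.40 (TMG), -0.18 (E2) and -0.32 (TMG_E2) in log2 units. In Atf4 the values were -0.17, -0.16, -0.11 and -0.16, and in Chac1 -0.58, -0.53, -0.26 and -0.39. The labels name no culture, day or batch for the replicate numbers, so what replicate 1 shares was not tested. With the replicate number as a block in the fit, the SE of Ddit3 in E2 vs Ctrl went from 0.15 to 0.06, and the adjusted p of Atf4 from 0.408 to 0.0670 in E2 vs Ctrl and from 0.0487 to 0.000199 in TMG_E2 vs TMG. No call of the 9 genes changed with the block.

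The 3 kept genes whose log2 CPM across the 12 libraries was most like that of 4 of the genes were listed by Pearson's r. Since all libraries share the E2 split, these values describe that split first for Eif2ak1, Hspa5 and Xbp1. For Atf4, which overlapped between E2 and Ctrl and between TMG_E2 and TMG, this need not hold. Nearest to Eif2ak1 were Hebp1, Usp4 and Hbb-bs (0.999 each), and among those nearest to Hspa5 were Nup54 (0.985) and Ube2e1 (0.984). Nearest to Xbp1 were Sri (0.995), Slc39a13 (0.989) and Cdkn1a (0.989). The gene nearest to Atf4 was Srp9 (0.872), followed by Lonrf1 (0.863) and Pnrc1 (0.852).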

How the data were processed

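Gene tables deposited for 12 G1E-ER4 libraries were analysed, with 4 groups of 3 read from the sample titles. The submitters' processing notes and design text name FastQC 0.11.2 for read quality, GRCm38 as the genome, Bowtie2 (no version), RSEM 1.2.22 for quantification, and edgeR 3.14.0 in R 3.2.2 for the tests. The deposited expected counts are the authors' RSEM estimates, which need not be whole. The deposited TPM values are scaled by the authors for length and depth, and were used to order genes by level and in an alternative test. The deposited FPKM values of the authors were not used.

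Expected counts were rounded and fitted with edgeR 4.0.16 (quasi-likelihood F test, TMM scaling, R 4.3.3) over all 12 libraries with a mean per group, keeping genes over 10 CPM in at least 2 libraries. Benjamini-Hochberg adjustment ran over the 8273 genes kept, with a threshold of 0.05. Alternatives used DESeq2 1.42.0, limma 3.58.1 (voom, and log2 of TPM + 1), other scalings and filters, the replicate block, only the groups compared, and each library left out. The fit was tested on simulated counts. It recovered 67.2% to 70.1% of genes changed 1.2-fold in the comparisons between groups and 14.9% in the interaction. Of its calls, 3.28% to 7.81% were genes that had not been changed. The 10 genes and all lists were chosen with earlier results of these data known. All 10 genes are named, and of each pathway list, for the effect of E2 on Ctrl cells and that of TMG without and with E2, the called genes with the 3 highest and 3 lowest fold changes above and below 0. For Eif2ak1, Atf4, Hspa5 and Xbp1 the 3 genes with the highest correlation were added. A gene that this rule takes is not reported here. Dele1 was matched through an older symbol in RefSeq. The lowest library count was 30 for Chac1 and 495 among the other 9 genes, so counting error weighs most on Chac1.

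Whether replicate numbers pair libraries was checked from the correlation of their deviations from the group means. For replicates 1, 2 and 3 it was 0.525, 0.149 and 0.412 between TMG_E2 and TMG, 0.285, 0.182 and 0.201 between TMG_E2 and E2, and 0.108, 0.278 and 0.112 between E2 and Ctrl. All of these exceed 0.1, so replicate numbers may pair libraries in these comparisons, judged from the data and not the labels. Libraries with different numbers were not compared, so the values cannot decide whether the numbers pair libraries. The main fit had no block and ignored such pairs. Only results given with the replicate block took the numbers into account. Between TMG and Ctrl the correlation was 0.0876, 0.0295 and 0.188, the last of which exceeds the 0.108 and 0.112 between E2 and Ctrl. Pairing of TMG with Ctrl was not assumed, though the block covered these groups too. Replicates of every group differed by more than sampling noise. Chi-square over its degrees of freedom was 2.41 to 4.17 for pairs within Ctrl, TMG and E2. Within TMG_E2 it was 8.66 to 13.1, so comparisons with TMG_E2 rest on the group with the largest spread by this measure.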

Additional observations from a re-analysis of the deposited data

Results flagged for a closer look

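Among the pathway genes, the response of Slc3a2, the heavy chain of several amino acid transporters, to Thiamet-G differed between cells without and with E2 by the test of the interaction itself (log2 0.36 ± 0.08, edgeR adjusted p = 0.0398). Slc3a2 measured 435, 444 and 461 CPM in Ctrl and 357, 368 and 407 CPM in TMG (log2 -0.24 ± 0.05, adjusted p = 0.0167). With E2 it measured 334, 345 and 351 CPM, and 343, 372 and 406 CPM in TMG_E2 (log2 0.12 ± 0.06, adjusted p = 0.169). With the replicate block that last change was called (log2 0.12, adjusted p = 0.0319). The groups without E2 do not overlap and those with E2 do. The interaction was called in 11 of 20 alternatives, with values from 0.30 to 0.43 and adjusted p from 0.000222 to 0.112. It was not called on leaving out any 1 library of Ctrl or E2, TMG replicate 1 or 2, or TMG_E2 replicate 2. It was the only gene called when the 9 genes and all 4 lists were searched, where 0.931% of all genes were called. The counts were 0 of 9 genes, 0 of 13 in the eIF2 list, 1 of 31 in the ATF4 list, 0 of 18 in the IRE1 list and 0 of 16 in the ATF6 list.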

How the results depend on the processing

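Of 936 re-analyses of single genes among the 9, 858 kept the direction and the side of the threshold, 21 lost the call, 5 gained one and 52 changed sign, all of the last for differences not called. With library size alone, changed signs were Atf4 in E2 vs Ctrl (-0.024), Trib3 (-0.0054) and Hspa5 (-0.0046) in TMG vs Ctrl, and Trib3 in TMG_E2 vs E2 (-0.018). With log2(TPM + 1) they were Atf4 in E2 vs Ctrl (-0.10), Ddit3 (-0.033), Trib3 (-0.035) and Hspa5 (-0.033) in TMG vs Ctrl, Trib3 in TMG_E2 vs E2 (-0.040) and the interaction of Xbp1 (-0.074). Trib3 in TMG_E2 vs E2 was -0.016 with limma-voom, -0.0028 with the replicate block and -0.0050 with only the groups compared, and its interaction was 0.0050 with DESeq2. Leaving out each library in turn gave Atf4 -9.15e-05 to 0.14 and Asns -0.028 to 0.0037 in E2 vs Ctrl, and Asns -0.050 to 0.0057 in TMG_E2 vs TMG. In TMG vs Ctrl it gave Atf4 -0.098 to 0.057, Ddit3 -0.10 to 0.21, Trib3 -0.11 to 0.12 and Hspa5 -0.011 to 0.033, and in TMG_E2 vs E2 Trib3 -0.096 to 0.16. Interactions ranged from -0.054 to 0.021 (Eif2ak1), -0.087 to 0.25 (Ddit3), -0.12 to 0.15 (Trib3), -0.039 to 0.025 (Asns), -0.13 to 0.063 (Ppp1r15a) and -0.030 to 0.078 (Xbp1). The count of the 9 genes called in TMG vs Ctrl (1) was 0 with library size alone and with filterByExpr and 0 to 1 on leaving out a library. In TMG_E2 vs E2 (1) it was 0 with TPM and 1 to 2 on leaving out a library. Over all genes, the calls in TMG vs Ctrl (426) were 675 with the replicate block, 749 with only the groups compared and 196 to 636 on leaving out a library. Those in TMG_E2 vs E2 (1055) were 472 with only the groups compared and 656 to 1160 on leaving out a library, lowest without E2 replicate 3 (656) or 2 (682). Calls in the interaction (77) were 178 with no filter, 48 with filterByExpr, 40 with limma-voom, 31 with TPM, 171 with the replicate block and 18 to 161 on leaving out a library. For all genes in TMG vs Ctrl, 249 were higher and 177 lower, but 179 and 232 with library size alone and 107 and 194 with TPM. In TMG_E2 vs E2 464 were higher and 591 lower, but 348 and 764 with library size alone, 194 and 699 with TPM, and 566 and 531 with RLE size factors. The causes were not tested. The interaction could not be fitted with only the groups compared, as it needs all 4.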
